A study of Homo sapiens with 18 samples.

Results

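Gene expression after 5 h with dCeMM-2, a compound that degrades cyclin K, was compared with gene expression after 5 h with THZ531, a compound that inhibits the kinases cyclin K serves. The comparison used the 3 libraries of each compound, 6 of the 18 libraries in the series, and every annotated gene identifier in the deposited counts, 58051 in all, of which 15055 were expressed well enough to be tested. The cells were KBM7, a human line from chronic myelogenous leukaemia. dCeMM-2 was given at 10 times its EC50 and THZ531 at 600 nM, so the doses are not matched and a difference between the compounds is also a difference between these doses. DMSO, the solvent, was given to 3 further libraries that are set beside both compounds, and polyadenylated RNA was sequenced in every group.

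Cyclin K (CCNK) is the partner that activates the kinases CDK12 and CDK13, which phosphorylate the tail of RNA polymerase II and keep it moving through gene bodies. Loss of their activity is known to impair the transcription of long genes and of DNA repair genes, through early cleavage and polyadenylation. dCeMM-2 is known as a molecular glue that brings CDK12 to DDB1, a part of the CUL4 ubiquitin ligase, so that the bound cyclin K is ubiquitinated and destroyed. THZ531 binds CDK12 and CDK13 covalently and blocks their activity while cyclin K stays in place. The series asked how compounds of the first kind act, and THZ531 stands in it as the known kinase inhibitor.

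Gene counts were 14823881, 13317249 and 8404212 in the dCeMM-2 libraries, 14074155, 12194329 and 13601124 in the THZ531 libraries, and between 4598576 and 16966951 in the DMSO libraries. THZ531 replicates 2 and 3 were more alike than any other pair of replicates, with a chi-square per degree of freedom of 1.43, against 17.2 and 18.9 for the other THZ531 pairs and 5.74 to 13.6 for the dCeMM-2 pairs. They differed by more than counting noise and were kept as 2 libraries, and counts with both summed into 1 are given below. The labels do not say that replicates came from separate cultures, so p-values measure the spread between these libraries, which may be technical. Of the markers of KBM7's lineage, SPI1, CD33, KIT and LYZ were present in every group, while ELANE was at 0 and MPO was near 0. Among erythroid and megakaryocytic genes the adult globin gene HBB and KLF1 were at 0, while TFRC, GATA1, EPOR, ITGA2B and GP9 were present in every group. The summed level of 16 myeloid and stem cell markers was 133 to 141 CPM (counts scaled to library size) with dCeMM-2 and 135 to 144 CPM with THZ531, against 234 to 244 CPM with DMSO. The members did not move as one against the solvent, with SPI1 at 62.3 CPM with dCeMM-2, 67.7 CPM with THZ531 and 149 CPM with DMSO, and CD33 at 39.2 CPM with dCeMM-2, 36.5 CPM with THZ531 and 27.1 CPM with DMSO. The sum of 13 lymphoid markers was 818 to 845 CPM with dCeMM-2 and 874 to 901 CPM with THZ531, against 389 to 409 CPM with DMSO. Only 7 of these 13 were expressed well enough to be tested, 5 of them above and 1 below DMSO with each compound. The sum of 17 erythroid and megakaryocytic markers was 1059 to 1135 CPM with dCeMM-2, 1146 to 1375 CPM with THZ531 and 2254 to 2478 CPM with DMSO. Nearly all of it was TFRC, at means of 1090 CPM with dCeMM-2, 1219 CPM with THZ531 and 2328 CPM with DMSO. The part of all these markers in the results was not tested.

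The transcriptomes of the compounds resembled each other far more than either resembled the solvent. Over 10221 genes, the root mean square difference in log2 CPM between a dCeMM-2 and a THZ531 library had a median of 0.44, while replicates of one compound differed by a median of 0.21 with dCeMM-2 and 0.21 with THZ531. Against a DMSO library the same measure had a median of 1.16 for dCeMM-2 and 1.25 for THZ531. The distance between the compounds was thus larger than the spread within each, and all 9 pairs of a dCeMM-2 with a THZ531 library, at 0.43 to 0.46, lay above every pair of replicates, at 0.16 to 0.23.

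Between the compounds, 4569 of the 15055 tested genes passed the threshold of 0.05 on the adjusted p (30.3%) in edgeR's quasi-likelihood test with Benjamini-Hochberg adjustment, the test behind every adjusted p below. Of these genes 3040 were higher with dCeMM-2 than with THZ531 (20.2% of all tested) and 1529 were lower (10.2%). Most of the differences were small. At least 2-fold differences were found in 513 genes that were higher with dCeMM-2 (3.41%) and in 104 that were lower (0.691%). The quartiles of the log2 fold change over all tested genes were -0.171 and 0.327, with a median of 0.05. With THZ531 replicates 2 and 3 summed, 2746 genes were higher and 1414 lower, 503 and 95 of them by at least 2-fold. In that fit 85 of the 86 named genes described below kept the direction and the side of the threshold, FANCD2 being the exception. The p53 target genes described below then had 13 lower and 3 higher members and the ERK feedback genes 11 higher and 0 lower.

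The balance of higher and lower calls depended on the scaling of the libraries, which set the median of all genes at 0.05 with TMM, -0.027 with the size factors of DESeq2 and 0.117 with the added spike-in RNA. Higher calls made up 66.5% of calls with TMM scaling, 51.5% with the size factors of DESeq2 and 90.4% with spike-in scaling. The size factors gave 2427 genes higher (16.1%) and 2285 lower (15.2%), and spike-in scaling gave 1340 higher (8.9%) and 143 lower (0.95%). The excess of higher calls among 2-fold differences was present on all 3 scales, with 429 higher and 128 lower on the size factors of DESeq2 and 598 higher and 49 lower with spike-in scaling. Fold changes below are on the TMM scale unless the spike-in scale is named. Higher and lower refer to dCeMM-2 against THZ531 unless DMSO or the solvent is named. A gene called higher can thus lie below DMSO with both compounds. Against DMSO, the spike-in scale set the median of all genes at -1.80 for dCeMM-2 and -1.94 for THZ531, while the TMM scale set it at -0.02 for dCeMM-2 and -0.10 for THZ531, so a TMM value above DMSO means higher relative to the other genes. Such values share the DMSO libraries between the compounds and are given only side by side. On the TMM scale, 37.1% of tested genes were higher and 41.2% lower with dCeMM-2 than with DMSO, and 35.8% were higher and 43.7% lower with THZ531 than with DMSO.

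The messenger RNA of cyclin K itself separated the compounds. CCNK (ENSG00000090061, GRCh38 chr14:99481169-99535044, plus strand) had 182, 179 and 182 CPM with dCeMM-2, 95.6, 95.7 and 98.9 CPM with THZ531, and 123, 119 and 126 CPM with DMSO. The 3 groups did not overlap, with dCeMM-2 above and THZ531 below the solvent. Over all tested genes, 25.9% had all dCeMM-2 libraries above all THZ531 libraries, and 15.9% had them all below. The direct log2 fold change was 0.90 ± 0.06 (SE, adjusted p = 1.17e-14), and it was 0.97 on the spike-in scale. The counts measure RNA and give no level of the protein, and CCNK overlaps CCDC85C on the opposite strand. CDK12 RNA went the other way, with 44.6, 41.9 and 44.2 CPM with dCeMM-2, 67.8, 66.8 and 72.0 CPM with THZ531, and 174, 180 and 182 CPM with DMSO. Both compounds left CDK12 far below the solvent, and dCeMM-2 left it lower than THZ531 did, by a log2 fold change of -0.66 ± 0.07 (adjusted p = 2.88e-09). CDK13 was also lower with dCeMM-2, at -0.34 ± 0.07 (adjusted p = 0.000342), and DDB1, the adaptor of the ligase, at -0.20 ± 0.06 (adjusted p = 0.014). On the spike-in scale the adjusted p was 0.533 for CDK13 and 0.805 for DDB1, and the DDB1 call was also lost without dCeMM-2 replicate 2 (-0.18, adjusted p = 0.0673) or THZ531 replicate 1 (-0.15, adjusted p = 0.108). Of the 12 genes listed for cyclin K, its kinases and the CUL4 ligase, 5 were higher and 4 lower with dCeMM-2. Over all tested genes the shares were 20.2% higher and 10.2% lower. The median of the list was -0.01, and spike-in scaling left 3 higher and 1 lower. On the TMM scale, UBE2G1, a ubiquitin-conjugating enzyme that works with CUL4 ligases, was higher at 0.70. CUL4B, a scaffold of the ligase, was higher at 0.27, while the related scaffold CUL4A was lower, at -0.33.

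The largest positive difference was in DUSP5, a phosphatase that switches off ERK signalling, and the largest negative one in EDA2R, a member of the p53 target list. The naming rule took the 10 largest differences each way among protein-coding genes past the threshold with separated libraries and at least 5 CPM in the higher group, a pool of 2564 higher and 1291 lower genes. Separated libraries are a part of that rule, so they are no finding for these 20 genes. DUSP5 (GRCh38 chr10:110497838-110511544, plus strand), a nuclear phosphatase of ERK, had 20.3, 19.2 and 16.7 CPM with dCeMM-2, 4.35, 3.25 and 3.31 CPM with THZ531, and 9.31, 8.72 and 8.05 CPM with DMSO. It stood above the solvent with dCeMM-2 and below it with THZ531, with a direct log2 fold change of 2.37 ± 0.14 (adjusted p = 2.09e-16). DUSP4, a related phosphatase, had 17.2, 16.0 and 14.3 CPM with dCeMM-2, 3.53, 3.86 and 3.94 CPM with THZ531, and 3.70, 5.27 and 3.26 CPM with DMSO. Here THZ531 overlapped the solvent and dCeMM-2 stood alone, with a direct log2 fold change of 2.08 ± 0.15 (adjusted p = 5.62e-14). RNF19B, an E3 ubiquitin ligase, had 44.3, 39.96 and 46.3 CPM with dCeMM-2, 8.70, 9.30 and 9.38 CPM with THZ531, and 20.9, 19.5 and 20.5 CPM with DMSO, a direct log2 fold change of 2.25 ± 0.10. MED26, the Mediator subunit known to recruit elongation factors to RNA polymerase II, had the same order of groups, with 40.4, 39.6 and 37.3 CPM with dCeMM-2, 8.95, 9.82 and 10.9 CPM with THZ531, and 15.7, 14.6 and 15.7 CPM with DMSO.

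The other 6 genes at that end were EPHB3, a receptor of B-type ephrins (2.04), OSER1, a gene named for its response to oxidative stress (2.04), XKR8, a scramblase that exposes phosphatidylserine on dying cells (2.25), NXT1, a cofactor of the mRNA export receptor (2.14), and the zinc finger genes THAP3 (2.02) and ZNF639 (2.02). EPHB3 and OSER1 were above DMSO with dCeMM-2 and below it with THZ531. XKR8, THAP3 and ZNF639 were below DMSO with both compounds and much further below with THZ531. ZNF639, for example, had 94.4, 98.5 and 96.8 CPM with dCeMM-2, 23.6, 23.3 and 24.6 CPM with THZ531, and 193, 164 and 172 CPM with DMSO. NXT1 had 25.5, 24.3 and 26.4 CPM with dCeMM-2, close to its 27.6, 29.9 and 25.7 CPM with DMSO, and 6.32, 5.53 and 5.36 CPM with THZ531.

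At the other end, EDA2R, a receptor of the TNF receptor family, had 1.41, 1.05 and 0.894 CPM with dCeMM-2, 6.90, 5.17 and 5.52 CPM with THZ531, and 0.0578, 0.418 and 0.575 CPM with DMSO, a direct log2 fold change of -2.34 ± 0.30 (adjusted p = 5.37e-08). Both compounds stood above the solvent and THZ531 stood much higher. E2F7, a repressor of the E2F family, had 2.60, 3.07 and 2.43 CPM with dCeMM-2, 11.5, 12.9 and 10.4 CPM with THZ531, and 13.2, 13.8 and 14.2 CPM with DMSO, so that dCeMM-2 stood far below the solvent, while the difference of THZ531 from the solvent, -0.24, did not pass (adjusted p = 0.0974). The direct log2 fold change of E2F7 was -2.08 ± 0.18 (adjusted p = 3.34e-12). The cholesterol exporter gene ABCA1 (-1.24) and the membrane protein gene EMP1 (-1.31) were also among the 10, as were ZBTB38, a zinc finger protein that binds methylated DNA (-1.62), and ENTPD7, a nucleotide hydrolase (-1.29). The remaining 4, MDM2, FDXR, TIGAR and TNFRSF10B, are in the p53 target list, as is EDA2R. Of these 20 genes, 10 overlap an annotated gene on the opposite strand, MDM2, TIGAR and TNFRSF10B among them, and the strand setting of the counting is not stated, so reads of such neighbours cannot be told apart.

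**Figure D1:**
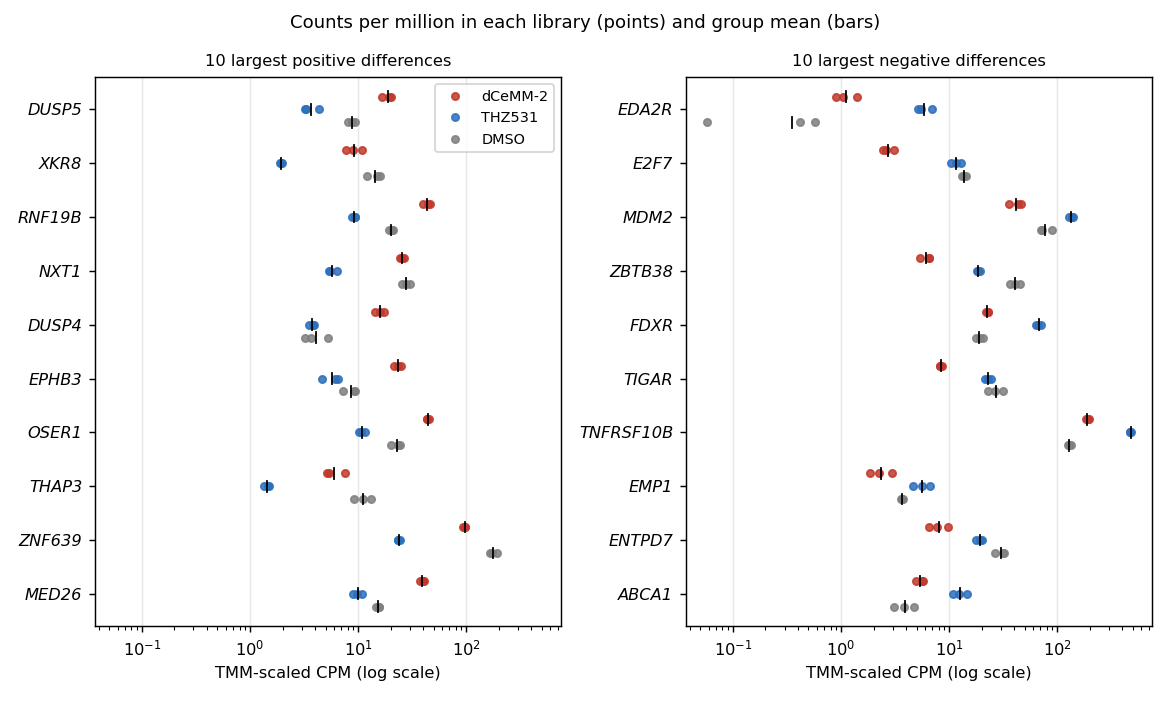
TMM-scaled CPM on a log axis for the 10 genes with the largest positive and the 10 with the largest negative log2 fold change between dCeMM-2 and THZ531. Each point is a library (3 per group) and each bar a group mean. DUSP5, RNF19B, EPHB3, OSER1 and MED26 have DMSO between dCeMM-2 and THZ531, and XKR8, THAP3 and ZNF639 have both compounds below DMSO.

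No gene of this pool was called on opposite sides of the solvent on both scales. In it, 164 genes were called above DMSO with dCeMM-2 and below DMSO with THZ531 on the TMM scale, and 43 the reverse way, but 0 genes in either direction passed on the TMM and spike-in scales together. A gene such as DUSP5, at 1.09 against DMSO with dCeMM-2 and -1.28 with THZ531 on the TMM scale, was at -0.66 and -3.09 on the spike-in scale. Its direct log2 fold change on that scale was 2.43.

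Of 26 p53 target genes, 25 were tested, and 14 were lower and 3 higher with dCeMM-2 than with THZ531, with a median log2 fold change of -0.37, against shares of 10.2% lower and 20.2% higher and a median of 0.05 over all tested genes. Spike-in scaling left 8 lower and 2 higher, with a median of -0.30. p53 is the transcription factor that DNA damage and other stress stabilise, and its targets arrest the cell cycle, repair DNA, promote cell death and, through MDM2, restrain p53 itself. MDM2 (GRCh38 chr12:68808176-68850686, plus strand) had 35.9, 46.3 and 43.3 CPM with dCeMM-2, 139, 137 and 128 CPM with THZ531, and 88.7, 73.0 and 71.3 CPM with DMSO. It was below the solvent with dCeMM-2 and above it with THZ531, with a direct log2 fold change of -1.69 ± 0.12 (adjusted p = 5.53e-11). FDXR, an electron carrier of mitochondrial steroid and iron metabolism, had 22.9, 21.8 and 22.7 CPM with dCeMM-2, 64.1, 66.7 and 71.2 CPM with THZ531, and 19.1, 20.5 and 17.6 CPM with DMSO. It was close to the solvent with dCeMM-2 and far above it with THZ531, with a direct log2 fold change of -1.59 ± 0.09 (adjusted p = 1.88e-17).

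TNFRSF10B, the death receptor DR5 for the ligand TRAIL, had 185, 195 and 191 CPM with dCeMM-2, 484, 475 and 476 CPM with THZ531, and 129, 134 and 126 CPM with DMSO. Its decoy relative TNFRSF10D had 256, 252 and 238 CPM with dCeMM-2, 538, 519 and 524 CPM with THZ531, and 27.0, 29.2 and 27.98 CPM with DMSO. Relative to other genes, both receptors were above the solvent with both compounds and about 1 log2 unit or more higher with THZ531. The direct log2 fold changes were -1.33 ± 0.06 (adjusted p = 4.68e-20) for TNFRSF10B and -1.08 ± 0.06 (adjusted p = 2.02e-17) for TNFRSF10D. Against DMSO on the spike-in scale, TNFRSF10B was at -1.23 with dCeMM-2 and 0.03 with THZ531, and TNFRSF10D at 1.36 and 2.38. CDKN1A, the cyclin-dependent kinase inhibitor p21, had 334, 313 and 340 CPM with dCeMM-2, 482, 511 and 520 CPM with THZ531, and 19.7, 18.4 and 20.1 CPM with DMSO. Both compounds raised it strongly relative to other genes, and it was lower with dCeMM-2, at -0.62 ± 0.06 (adjusted p = 3.35e-10), while on the spike-in scale the difference of -0.55 had an adjusted p of 0.0719.

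The remaining p53 targets that were lower with dCeMM-2 were TIGAR, a phosphatase of glycolytic intermediates (-1.47), RRM2B, a ribonucleotide reductase subunit (-1.20), the DNA damage recognition gene XPC (-1.16), ZMAT3, an RNA-binding zinc finger gene (-0.98), RPS27L (-0.65), TP53I3 (-0.62), the damage recognition gene DDB2 (-0.42) and the death genes PMAIP1 (-0.37) and BAX (-0.32). Such members, where they are not among the 86 genes of the naming rule, were chosen after their values were seen here and below. The 3 that were higher were SESN2, a stress gene that ATF4 also drives (1.84), BBC3, which encodes the death activator PUMA (1.51), and the nuclease gene AEN (0.31). SESN2 had 39.8, 42.5 and 39.1 CPM with dCeMM-2, 10.8, 12.1 and 11.04 CPM with THZ531, and 9.60, 9.60 and 11.3 CPM with DMSO, so THZ531 overlapped the solvent. The list therefore held members past the threshold in both directions.

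The promoter of FDXR is shown, a choice made after its values were seen, because this gene combined a large difference with a match to the p53 half-site in the 250 bases before its RefSeq start (GRCh38.p14 chr17:74872995-74873244, minus strand, capitals mark the half-site). 
FDXR: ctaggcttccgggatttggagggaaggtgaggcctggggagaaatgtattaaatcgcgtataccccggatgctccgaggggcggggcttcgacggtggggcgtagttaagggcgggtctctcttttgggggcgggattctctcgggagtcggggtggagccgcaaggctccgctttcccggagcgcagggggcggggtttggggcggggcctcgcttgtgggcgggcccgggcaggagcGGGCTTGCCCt
Searched on both strands, the half-site was present in 5.57% of the 35116 RefSeq promoters of that length. Of the 22 listed p53 targets with a promoter in the table, 5 held it, AEN, FAS, FDXR, RPS27L and SESN1. A match describes these letters only.

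**Figure D2:**
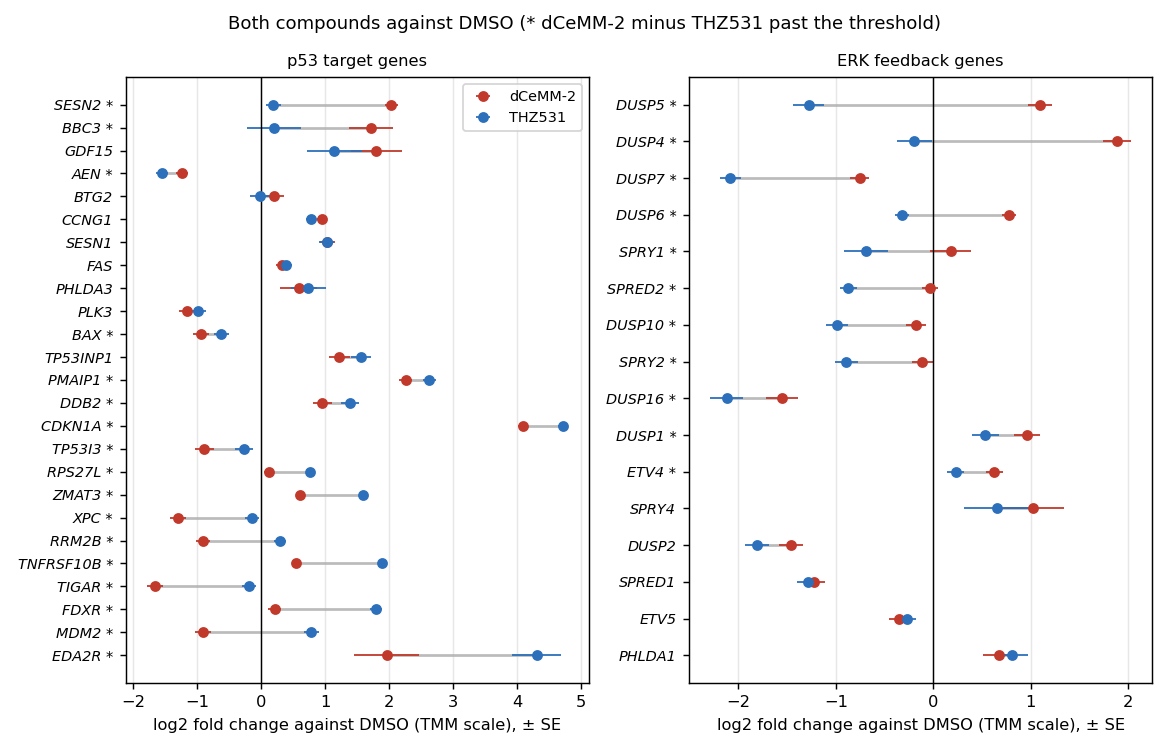
Log2 fold change against DMSO on the TMM scale, ± SE, for each tested p53 target gene and ERK feedback gene, with dCeMM-2 and THZ531 joined by a line and genes ordered by the difference. Asterisks mark members past the threshold between the compounds, which are 14 lower and 3 higher p53 targets and 11 higher ERK feedback genes.

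Of 16 tested ERK feedback genes, 11 were higher and 0 lower with dCeMM-2 than with THZ531, with a median log2 fold change of 0.68, against 20.2% higher, 10.2% lower and a median of 0.05 over all tested genes. The same background is used for each list below. Over tested protein-coding genes alone, 23.8% were higher and 11.4% lower, with a median of 0.069. Higher calls were 39.2% in those with 2 exons and 34% in those with 3. The lists were not matched for gene type or exon number. Spike-in scaling left 8 higher and 0 lower, with a median of 0.75. Many of these genes, though not all, are known to be switched on by ERK, the last kinase of the RAS and MAP kinase cascade. Several encode brakes on it. ERK activity was not measured. Besides DUSP5 and DUSP4, the phosphatase DUSP6 had 261, 264 and 226 CPM with dCeMM-2, 130, 108 and 113 CPM with THZ531, and 148, 145 and 146 CPM with DMSO. It was above the solvent with dCeMM-2 and below it with THZ531, with a direct log2 fold change of 1.10 ± 0.07 (adjusted p = 1.94e-15). DUSP7 was below the solvent with both compounds, at 31.6, 31.1 and 26.2 CPM with dCeMM-2, 11.8, 12.8 and 11.1 CPM with THZ531, and 44.1, 56.8 and 50.02 CPM with DMSO. The receptor signalling inhibitors SPRY1 (0.87), SPRY2 (0.78) and SPRED2 (0.83) were higher as well, as were DUSP10 (0.81), DUSP16 (0.57), DUSP1 (0.43) and the transcription factor gene ETV4 (0.40). The 5 members that did not pass were SPRY4 (0.37), DUSP2 (0.35), SPRED1 (0.06), ETV5 (-0.08) and PHLDA1 (-0.14).

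Immediate early genes, which growth factors and stress switch on within minutes, were mostly above the solvent, relative to other genes, with both compounds. Of 32 tested, 24 were above and 3 below DMSO with dCeMM-2, and 23 were above and 6 below DMSO with THZ531. Between the compounds 14 were higher and 1 lower with dCeMM-2 and 17 did not pass, with a median log2 fold change of 0.34, and spike-in scaling left 11 higher and 0 lower. KLF6, a zinc finger transcription factor, had 218, 187 and 140 CPM with dCeMM-2, 81.1, 68.7 and 72.0 CPM with THZ531, and 47.6, 50.3 and 49.3 CPM with DMSO. The stress factor ATF3 had 39.9, 39.4 and 36.1 CPM with dCeMM-2, 20.6, 19.1 and 18.9 CPM with THZ531, and 13.2, 12.3 and 11.7 CPM with DMSO. In both genes all dCeMM-2 libraries were above all THZ531 libraries, as in 25.9% of all tested genes, and all THZ531 libraries were above all DMSO libraries. The direct log2 fold changes were 1.30 ± 0.11 (adjusted p = 7.38e-11) for KLF6 and 0.98 ± 0.09 (adjusted p = 1.21e-11) for ATF3. The nuclear receptor gene NR4A2 (1.36), MAFF (1.09), KLF4 (1.00), JUND (0.79) and the serum response factor gene SRF (0.73) were also higher. FOS, a part of the factor AP-1, had 81.8, 71.9 and 72.2 CPM with dCeMM-2, 88.2, 81.7 and 85.7 CPM with THZ531, and 10.9, 14.4 and 13.8 CPM with DMSO, and its difference between the compounds of -0.18 ± 0.08 did not pass (adjusted p = 0.105). The single member that was lower was EGR1 (-0.34 ± 0.10, adjusted p = 0.00771), with 45.5, 41.0 and 35.9 CPM with dCeMM-2, 46.7, 57.6 and 51.5 CPM with THZ531, and 59.0, 70.4 and 73.2 CPM with DMSO. On the size factors of DESeq2 the list had 13 higher and 5 lower members.

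The promoter of MAFF, a small MAF transcription factor, is shown, also chosen after its values were seen, as the immediate early promoter with a full cAMP response element (CRE, TGACGTCA, palindromic) and a large difference. MAFF had 15.7, 15.9 and 14.8 CPM with dCeMM-2, 7.72, 6.32 and 7.80 CPM with THZ531, and 4.34, 4.54 and 4.41 CPM with DMSO. The 250 bases before its RefSeq start (GRCh38.p14 chr22:38201744-38201993, plus strand) read as follows, with the element in capitals. 
MAFF: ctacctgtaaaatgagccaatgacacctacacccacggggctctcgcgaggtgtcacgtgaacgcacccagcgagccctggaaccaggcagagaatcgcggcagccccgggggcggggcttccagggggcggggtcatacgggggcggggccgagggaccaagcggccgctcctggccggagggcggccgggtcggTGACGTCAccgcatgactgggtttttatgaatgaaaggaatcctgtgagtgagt
The element was present in 1.65% of the 35116 promoters, and of the 24 listed immediate early genes with a promoter in the table it was in 2, JUND and MAFF.

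Genes tied to growth factor withdrawal, body patterning and leukaemic growth also leaned to dCeMM-2. Of 17 FOXO target genes, which FOXO factors switch on when growth signalling through AKT falls, 11 were higher and 2 lower with dCeMM-2 (median 0.54), and spike-in scaling left 6 higher and 0 lower. FOXO1 itself had 55.1, 59.4 and 45.7 CPM with dCeMM-2, 18.9, 17.9 and 16.1 CPM with THZ531, and 10.9, 9.76 and 9.01 CPM with DMSO. It was above the solvent with both compounds and highest with dCeMM-2, with a direct log2 fold change of 1.61 ± 0.10 (adjusted p = 6.52e-16). The arrestin relative ARRDC3 (1.37), the insulin receptor adaptor IRS2 (1.12) and the cell cycle inhibitor CDKN1B (0.52) were higher, and TXNIP, a regulator of glucose uptake, was lower (-0.63). Of 18 tested HOX and other homeobox genes, 11 were higher and 0 lower, the median was 0.63, and all 18 had a positive log2 fold change on the TMM scale. HOXA9, a homeobox gene of blood stem cells and leukaemia, had 104, 98.4 and 83.1 CPM with dCeMM-2, 69.3, 63.6 and 59.8 CPM with THZ531, and 23.4, 23.4 and 23.4 CPM with DMSO. CDX2, an upstream regulator of HOX genes, had 6.68, 6.07 and 4.72 CPM with dCeMM-2, 1.72, 1.32 and 1.89 CPM with THZ531, and 16.9, 18.9 and 17.6 CPM with DMSO. HOXA9 was above the solvent with both compounds and CDX2 below it with both, and both were higher with dCeMM-2, at 0.57 ± 0.08 (adjusted p = 7.2e-07) for HOXA9 and 1.84 ± 0.22 (adjusted p = 8.44e-09) for CDX2. Spike-in scaling left 7 of the list higher and 0 lower, and MSX2, another homeobox gene, was at 1.67.

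MYC, the growth-promoting transcription factor, had 489, 491 and 445 CPM with dCeMM-2, 292, 269 and 283 CPM with THZ531, and 777, 837 and 791 CPM with DMSO. The groups did not overlap, and both compounds were below the solvent, THZ531 further than dCeMM-2, with a direct log2 fold change of 0.76 ± 0.06 (adjusted p = 4.49e-13). Separation with dCeMM-2 above THZ531 was shared by 25.9% of all tested genes. Of 12 genes of the MYC and MAX network, 7 were higher and 0 lower, MNT (1.02) and MYCN (1.81) among them. Of 25 MYC target and ribosome biogenesis genes, 13 were higher and 4 lower, with the nucleolar gene NOP16 at 1.47 and the polyamine enzyme gene ODC1 at 0.90, but the ribosome processing genes UTP20 and RRP12 at -1.10 and -0.94. With the size factors of DESeq2, 9 of that list were higher and 5 lower, and with spike-in scaling 6 and 2. Of 20 genes on the axis of BCR-ABL, the kinase of chronic myelogenous leukaemia, and its effector STAT5, 9 were higher and 1 lower. The survival kinase PIM1, a STAT5 target, had 379, 360 and 348 CPM with dCeMM-2, 161, 159 and 149 CPM with THZ531, and 504, 548 and 525 CPM with DMSO. It too was below the solvent with both compounds and further with THZ531, with a direct log2 fold change of 1.21 ± 0.06 (adjusted p = 5.2e-19). PIM3 (0.91), PIM2 (0.79) and SOCS2 (0.71) were higher, and CCND2, a D-type cyclin gene, was the 1 lower member (-0.31).

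**Figure D3:**
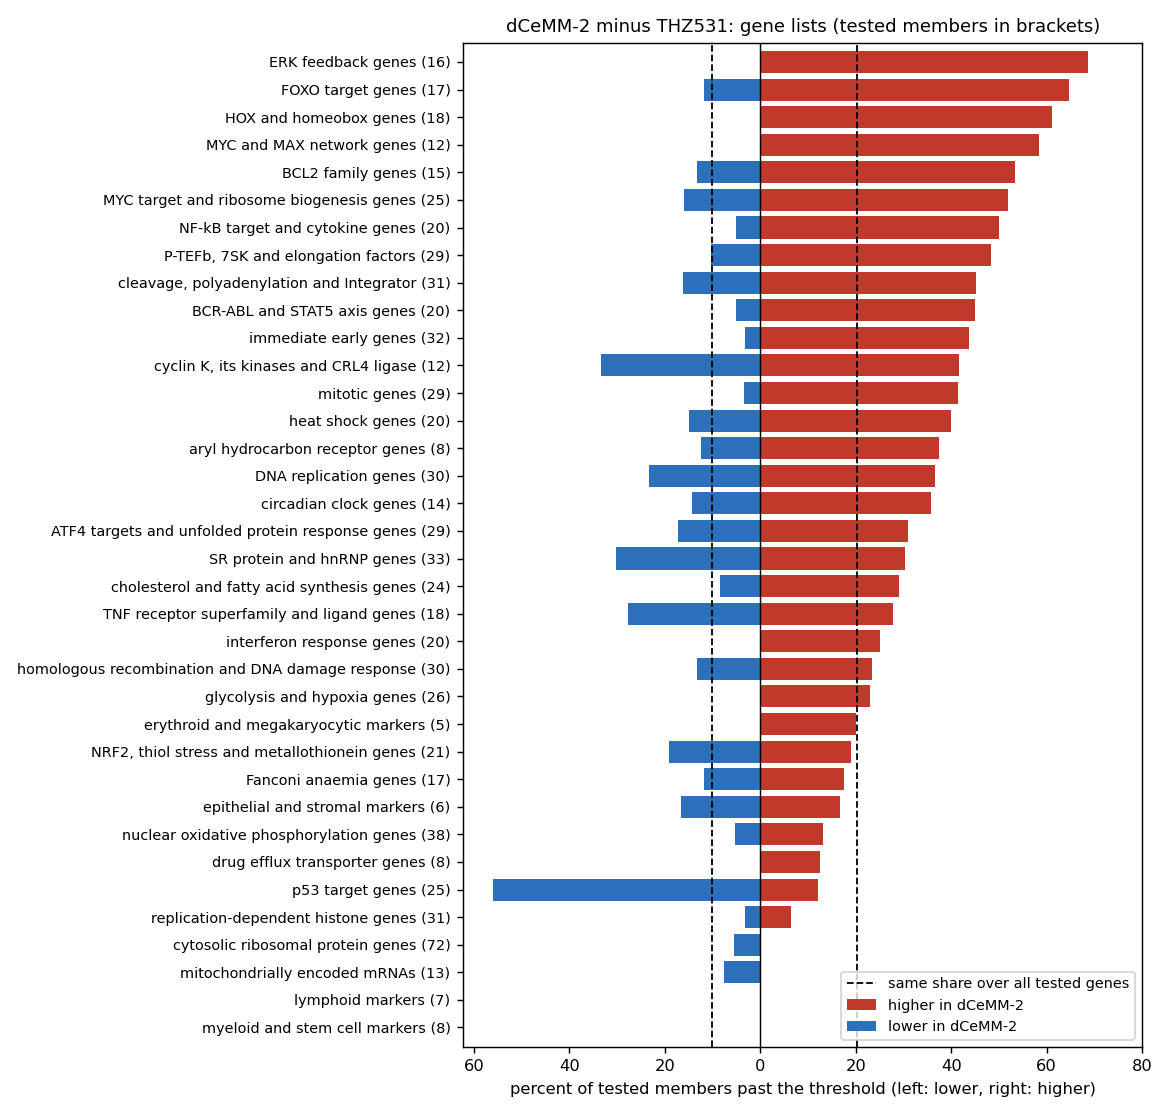
Percent of the tested members of each gene list that were higher (right) or lower (left) with dCeMM-2 than with THZ531 at an adjusted p below 0.05, with the number of tested members in brackets. Dashed lines mark 20.2% higher and 10.2% lower over all tested genes. ERK feedback genes have the longest bar to the right (11 of 16) and p53 target genes the longest to the left (14 of 25).

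Genes for the machinery that elongates, cleaves and polyadenylates transcripts had more higher than lower members, with single members on both sides. Of 29 genes for P-TEFb, its 7SK inhibitor and other elongation factors, 14 were higher and 3 lower with dCeMM-2, 7 and 1 with spike-in scaling, and 11 and 6 with the size factors of DESeq2. LEO1, a subunit of the PAF elongation complex, had 61.9, 60.3 and 56.2 CPM with dCeMM-2, 20.3, 21.8 and 22.8 CPM with THZ531, and 89.4, 87.5 and 81.8 CPM with DMSO, and NELFA, a subunit of the pausing factor NELF, had 58.7, 50.9 and 54.4 CPM with dCeMM-2, 20.7, 18.4 and 21.8 CPM with THZ531, and 48.6, 54.5 and 53.7 CPM with DMSO. NELFA thus overlapped the solvent with dCeMM-2 and not with THZ531. The direct log2 fold changes were 1.46 ± 0.08 (adjusted p = 2.71e-17) for LEO1 and 1.43 ± 0.09 (adjusted p = 6.52e-16) for NELFA. The elongation factor gene ELL (1.16) and the P-TEFb cyclin CCNT2 (0.97) were higher. HEXIM1, which holds P-TEFb inactive and is known to rise when transcription is inhibited, had 69.4, 57.2 and 48.5 CPM with dCeMM-2, 71.0, 83.5 and 86.5 CPM with THZ531, and 26.7, 28.96 and 30.9 CPM with DMSO. It was lower with dCeMM-2, at -0.45 ± 0.11 (adjusted p = 0.00116), and its adjusted p on the spike-in scale was 0.338. SUPT6H, a histone chaperone of elongating polymerase, was lower at -0.69 (adjusted p = 1.15e-09).

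Of 31 genes for cleavage, polyadenylation and Integrator, which cuts nascent RNA, 14 were higher and 5 lower, 8 and 0 with spike-in scaling, and 12 and 5 with the size factors. The cleavage factor gene CLP1 (1.27) and the Integrator gene INTS12 (1.13) were the 2 with the lowest adjusted p, and both were below DMSO with both compounds, at -0.93 and -0.99 with dCeMM-2 and at -2.20 and -2.12 with THZ531. CPSF7 was the lowest member, at -0.66. Among 33 SR protein and hnRNP genes, the splicing regulators, 10 were higher and 10 lower, but 8 and 16 with the size factors and 3 and 0 with spike-in scaling. The kinase genes of SR proteins CLK1 (1.08) and CLK3 (0.97) and the gene SRSF7 (0.70) were higher, and SRSF1 (-0.50) and HNRNPF (-0.42) were lower.

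DNA repair genes, the class for which CDK12 is best known, differed between the compounds at a share of 36.7%, near the 30.3% of all tested genes. Of 30 homologous recombination and damage response genes, 24 were below DMSO with dCeMM-2 and 22 with THZ531. Between the compounds, 7 were higher and 4 lower with dCeMM-2 than with THZ531, with a median of -0.09. On the size factors of DESeq2, 7 were higher and 8 lower. BRCA1 had 23.8, 19.9 and 20.6 CPM with dCeMM-2, 22.3, 16.7 and 17.3 CPM with THZ531, and 53.7, 48.3 and 56.2 CPM with DMSO. The compounds overlapped, and the direct log2 fold change was 0.20 with a 95% interval of -0.06 to 0.45 (adjusted p = 0.221), although without THZ531 replicate 1 it was 0.34 (adjusted p = 0.0367). ATR had 32.0, 32.8 and 31.4 CPM with dCeMM-2, 33.1, 36.8 and 34.4 CPM with THZ531, and 96.1, 111 and 105 CPM with DMSO, a difference of -0.11 with an interval of -0.33 to 0.10 (adjusted p = 0.418). FANCD2 had 48.6, 39.7 and 31.3 CPM with dCeMM-2, 46.6, 35.6 and 36.9 CPM with THZ531, and 23.9, 25.7 and 25.1 CPM with DMSO, a difference of 0.02 with an interval of -0.25 to 0.30 (adjusted p = 0.912). All 3 intervals lay within a 1.5-fold difference in either direction. Among the 11 that differed, and the 5 in the Fanconi anaemia list, were WEE1, the kinase that holds cells before mitosis (0.97), RNF168 (0.73) and PALB2 (0.81), which were higher, and the helicase gene BRIP1 (-0.62), which was lower on the TMM scale and had an adjusted p of 0.109 on the spike-in scale. Of 17 Fanconi anaemia genes 3 were higher and 2 lower, a share of 29.4%, near the 30.3% of all tested genes.

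Proliferation genes leaned to dCeMM-2 in part. Of 29 tested mitotic genes, 12 were higher and 1 lower, with the kinesin gene KIF23 at 0.98 and the checkpoint kinase gene TTK at 0.98. Spike-in scaling left 2 higher and 0 lower. The median log2 fold change was 0.20 with TMM and 0.28 with spike-in scaling, so the fewer calls did not go with a smaller median. Against DMSO, 24 mitotic genes were lower and 2 higher with dCeMM-2, and 26 were lower and 1 higher with THZ531. Of 30 DNA replication genes, 11 were higher and 7 lower, but 9 and 8 with the size factors of DESeq2 and 5 and 0 with spike-in scaling. GINS3, a part of the replicative helicase, had 21.5, 20.4 and 16.2 CPM with dCeMM-2, 6.40, 5.09 and 4.73 CPM with THZ531, and 17.4, 14.5 and 13.03 CPM with DMSO, a direct log2 fold change of 1.86 ± 0.14 (adjusted p = 5.89e-14). PCNA, the sliding clamp and itself known as a p53 target, had 625, 615 and 617 CPM with dCeMM-2, 383, 373 and 372 CPM with THZ531, and 237, 224 and 226 CPM with DMSO, and CCNE1 was at 1.41. MCM6, a helicase subunit, was the lowest member, at -0.59.

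Stress responses held large differences in single genes. Of 29 ATF4 target and unfolded protein response genes, 9 were higher and 5 lower, with SESN2 (1.84), the pseudokinase gene TRIB3 (1.19) and XBP1 (0.90) among the higher. With the size factors of DESeq2, 8 were higher and 7 lower, and with spike-in scaling 6 and 0. Against DMSO, XBP1 was at -2.98 with dCeMM-2 and -3.87 with THZ531, and SESN2 at 2.03 and 0.19. Of 20 heat shock genes, 8 were higher and 3 lower, but 5 and 5 with the size factors of DESeq2 and 3 and 0 with spike-in scaling. Their median was 0.06 with TMM and 0.12 with spike-in scaling. The co-chaperone gene BAG3 had 107, 117 and 109 CPM with dCeMM-2, 44.7, 42.3 and 44.6 CPM with THZ531, and 56.4, 54.6 and 55.6 CPM with DMSO, so the solvent lay between the compounds. Its direct log2 fold change was 1.34 ± 0.08 (adjusted p = 1.04e-16), and that of DNAJB1, another co-chaperone gene, was 1.09. DNAJB1 was below DMSO with both compounds, at -1.59 with dCeMM-2 and -2.68 with THZ531. Of 21 genes for NRF2, thiol stress and metallothioneins, 4 were higher and 4 lower, with the cystine importer gene SLC7A11 at -0.74 (93.3, 110 and 114 CPM with dCeMM-2, 174, 178 and 179 CPM with THZ531, and 14.2, 11.6 and 12.1 CPM with DMSO) and the glutathione synthesis gene GCLC at 0.66. Of 8 genes for the aryl hydrocarbon receptor, 3 were higher, TIPARP (1.36), CYP1B1 (1.15) and AHR itself (0.96), and 1 was lower, NQO1 (-0.48). TIPARP had 109, 118 and 95.6 CPM with dCeMM-2, 47.4, 42.1 and 36.5 CPM with THZ531, and 47.4, 38.1 and 41.4 CPM with DMSO, so that THZ531 overlapped the solvent. The receptor's best known target, CYP1A1, was at -0.16 and did not pass.

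Among cell death and inflammation genes, 3 lists had more higher than lower members and the TNF receptor list had as many of each. Of 15 BCL2 family genes, 8 were higher and 2 lower, with the activators BBC3 (1.51) and BCL2L11 (0.69) and the protector MCL1 (0.62) all higher, and BAX and PMAIP1 lower as given above. MCL1 had 199, 199 and 155 CPM with dCeMM-2, 123, 116 and 122 CPM with THZ531, and 208, 204 and 194 CPM with DMSO. Of 18 TNF receptor and ligand genes, 5 were higher, led by TNFRSF1A (0.83), and 5 lower, all of them EDA2R or receptors of TRAIL. Of 20 NF-kB target and cytokine genes, 10 were higher and 1 lower, but spike-in scaling left 2 higher and 0 lower. Their median was 0.33 with TMM and 0.41 with spike-in scaling. RELA, a subunit of NF-kB, was at 0.81 and CD83 at 0.90. Against DMSO, 17 of these 20 genes were lower and 1 higher with each compound, RELA and CD83 being among the lower. Of 20 interferon response genes, 5 were higher (25%, near the 20.2% of all tested genes) and 0 lower, with the chemokine CXCL10 at 1.01 ± 0.07 (adjusted p = 2.56e-14) and the antiviral gene OAS2 at 0.35. Among 14 clock genes 5 were higher, PER1 at 1.19 and BHLHE40 at 0.63, and 2 lower, CLOCK at -0.66. In metabolism, 7 of 24 cholesterol and fatty acid synthesis genes were higher and 2 lower, with the sterol sensor partner INSIG1 at 0.79 and the squalene synthase FDFT1 at 0.45. The size factors of DESeq2 gave 6 higher and 5 lower in this list, and spike-in scaling 2 and 0. Of 26 glycolysis and hypoxia genes, 6 were higher (23.1%, again near 20.2%) and 0 lower, with the glucose transporter SLC2A1 at 0.91 and LDHA at 0.35. Against DMSO, SLC2A1 was at -2.63 with dCeMM-2 and -3.53 with THZ531. In the list 18 were above and 6 below DMSO with dCeMM-2, and 17 and 7 with THZ531. 

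Other lists lay near or under the share over all genes. Of 72 cytosolic ribosomal protein genes, 0 were higher and 4 lower, all by little, with RPL23 at -0.20 and RPS20 at -0.18, while all 72 were above DMSO on the TMM scale with both compounds. On the size factors of DESeq2, 19 were lower. Of 38 nuclear genes for oxidative phosphorylation, 5 were higher, UQCRFS1 at 0.67, and 2 lower, NDUFS1 at -0.42, but with those size factors 3 were higher and 6 lower. Of 31 histone genes 2 were higher, HIST3H2A at 0.38, and 1 lower, HIST1H3G at -0.34, and of 8 drug efflux transporters 1 was higher, ABCB4 at 0.55. The calls of RPS20, RPL23, HIST3H2A and HIST1H3G were lost when single libraries were left out, at adjusted p from 0.05 to 0.0923. Among cell type markers, 0 of 8 myeloid and stem cell and 0 of 7 lymphoid markers differed, of 6 epithelial and stromal markers KRT18 was higher (0.52) and PECAM1 lower (-0.33), and of 5 erythroid and megakaryocytic markers 1 was higher. This was GATA1, the transcription factor of red cells, platelets and mast cells, with 3.42, 3.96 and 2.55 CPM with dCeMM-2, 0.985, 0.877 and 1.18 CPM with THZ531, and 3.59, 4.44 and 3.83 CPM with DMSO, a direct log2 fold change of 1.73 ± 0.28 (adjusted p = 3.88e-06). On the spike-in scale, 16 of the 86 named genes lost their call: CDK13, DDB1, CDKN1A, HEXIM1, BRIP1, TXNIP, OAS2, FDFT1, LDHA, KRT18, PECAM1, NDUFS1, RPS20, RPL23, HIST3H2A and HIST1H3G.

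The structure of genes went with the direction of the difference. Protein-coding genes at least 2-fold higher with dCeMM-2 had a median of 5 exons and a median span of 19 kb (464 genes), those at least 2-fold lower had 11 exons and 43.7 kb (47 genes), and all 12332 tested ones had 10 exons and 33.2 kb. By exon number, genes with 2 exons had a median log2 fold change of 0.377, with 39.2% higher and 3.7% lower, and the median fell with each further class to -0.023 in genes with over 20 exons, where 14.8% were higher and 18.2% lower. Genes with a single exon did not follow this order, with a median of 0.087. Against DMSO the median of 2-exon genes was -0.38 with dCeMM-2 and -0.92 with THZ531, and that of genes with over 20 exons was -0.15 with dCeMM-2 and -0.16 with THZ531. By span, the median was 0.122 in genes under 5 kb, 0.176 in genes of 5 to 10 kb, 0.15 in genes of 10 to 20 kb and lower in each longer class, down to -0.102 in genes of 500 kb or more, so the shortest class did not follow the order of the others. Exon number and span are linked, but among genes of 20 to 100 kb the median was still 0.37 with 2 to 3 exons and 0.02 with over 10. The order by span did not hold at every exon number. With 2 to 3 exons the median was 0.285 under 20 kb and 0.372 at 100 kb or more (17 genes). With over 10 exons it was 0.139 under 20 kb and -0.057 at 100 kb or more.

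**Figure D4:**
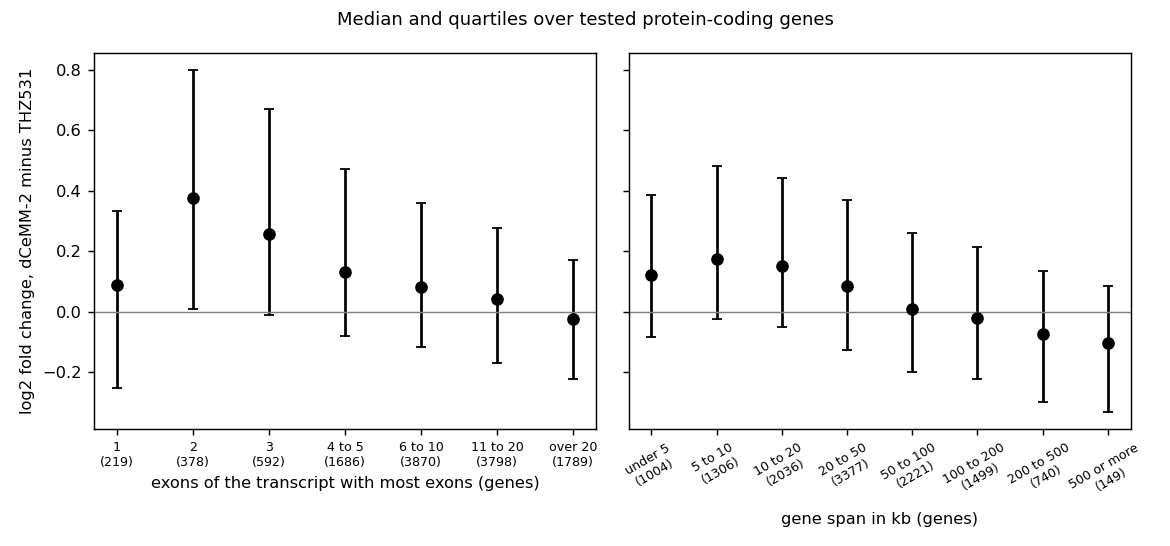
Median log2 fold change between dCeMM-2 and THZ531, with quartiles as bars, over tested protein-coding genes grouped by the exon number of their transcript with most exons (left) and by span (right), with the number of genes in brackets. The median is 0.377 for genes with 2 exons and -0.023 for genes with over 20.

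The differences by exon number and by span separated the libraries of the compounds. Each gene was centred on its mean over the 6 libraries, so the sign of a value is relative to the other compound. The median of genes with 2 to 3 exons minus that of genes with over 10 was 0.214, 0.148 and 0.112 in the dCeMM-2 libraries and -0.166, -0.120 and -0.132 in the THZ531 libraries, a difference of 0.298. This measure was added after the data were seen. The median of genes of at least 100 kb minus that of genes under 20 kb was -0.144, -0.0446 and -0.116 with dCeMM-2 and 0.138, 0.0953 and 0.0564 with THZ531, a difference of -0.198. In both measures the groups did not overlap, and the exact two-sided permutation p was 0.1, the smallest that 3 libraries against 3 can give. Single-exon minus multi-exon genes gave a difference of -0.0124 (exact permutation p = 0.9), with dCeMM-2 libraries from -0.173 to 0.139.

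The spike-in share and the mitochondrial share of a library overlapped between the compounds. Spike-in RNA made up 0.523%, 0.429% and 0.585% of counts with dCeMM-2 (0.512% ± 0.0784, SD, n = 3), 0.416%, 0.591% and 0.584% with THZ531 (0.531% ± 0.0992) and 0.202%, 0.167% and 0.168% with DMSO (0.179% ± 0.02). The compounds differed by -0.0184 percentage points (exact permutation p = 0.9), both were above the solvent, and fewer cells and less RNA per cell cannot be told apart in such bulk libraries. Mitochondrially encoded RNA made up 9.10%, 6.90% and 5.09% of gene counts with dCeMM-2, 12.9%, 8.21% and 8.17% with THZ531, and 4.62%, 4.93% and 5.89% with DMSO. The compounds overlapped, with a difference of -2.72 percentage points (exact permutation p = 0.3), which was -1.16 without THZ531 replicate 1 and -1.75 without dCeMM-2 replicate 3. All 13 mitochondrially encoded mRNAs had a negative direct log2 fold change (median -0.58), 1 of them past the threshold (MT-ND5, -0.75 ± 0.25, adjusted p = 0.0383), and on the spike-in scale 9 were lower. With all mitochondrially encoded genes left out, 3031 genes were higher and 1542 lower.

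**Figure D5:**
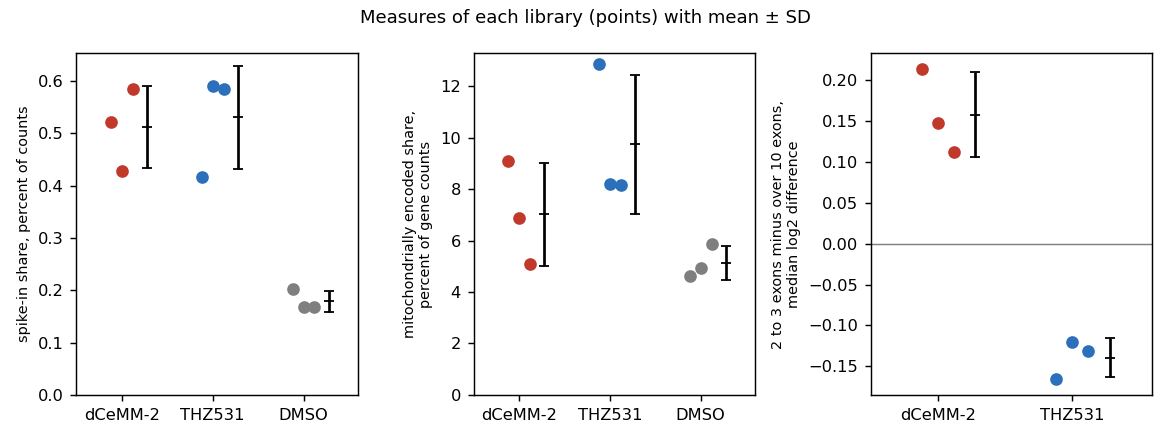
Spike-in share of all counts, mitochondrially encoded share of gene counts, and median log2 difference of genes with 2 to 3 exons minus genes with over 10, for each library (points) with mean and SD (bars), n = 3 per group. The shares overlap between dCeMM-2 and THZ531, and the exon measure is 0.112 to 0.214 with dCeMM-2 and -0.166 to -0.120 with THZ531.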

How the data were processed

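Polyadenylated RNA of KBM7 cells was sequenced in 18 libraries, 6 groups of 3, with ERCC and SIRV spike-in RNA. Each library's deposited table holds raw counts of reads by gene, not normalized. Tools in the submitters' processing notes, listed there without roles, are HTSeq 0.11.2, STAR 2.5.2b, Trimmomatic 0.32 and Picard, with the build GRCh38.p7, and strand setting and molecular identifiers are not given in the sources used here. Reads placed at several positions (35.6% to 39.7% of reads with the compounds) are not in the gene counts, which touches families with near-identical copies.

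Symbols and gene models came from GENCODE release 29 (57447 of 58051 identifiers matched) and promoters from RefSeq (GRCh38.p14). edgeR 4.0.16 in R 4.3.3 tested the 15055 genes that passed filterByExpr, with TMM scaling on endogenous genes and 1 coefficient per group over all 18 libraries (12 residual degrees of freedom, common dispersion 0.00439). The adjusted p is Benjamini-Hochberg over all 15055 genes, threshold 0.05. Standard errors (SE) are of the log2 fold change, levels are TMM-scaled CPM, and 95% intervals use a t distribution with 12 degrees of freedom. Pipelines were tested on simulated data. Single values per library were compared by exact two-sided permutation tests. Alternatives were DESeq2 1.42.0, its size factors, spike-in scaling, other filters, the 6 libraries alone, left-out libraries and a replicate block.

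The comparison, the 36 gene lists (845 entries, 824 genes, 758 tested) and the naming rule were chosen with earlier results of these data known, so lists are described by counts and medians without a test. The rule names the 10 largest differences each way, the 2 best-ranked members by adjusted p in any list with at least 2 called, 10 genes whatever their values (CCNK, CDK12, CDK13, DDB1, MYC, CDKN1A, HEXIM1, BRCA1, ATR, FANCD2), and up to 4 genes each way on opposite sides of DMSO on both scales, 86 genes in all. Genes with low counts have wider errors, and counting intervals cover counting error only.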

Additional observations from a re-analysis of the deposited data

Results flagged for a closer look

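Reads placed at several positions stood above the solvent in every library of both compounds, and reads outside annotated features did so in every dCeMM-2 library. Reads placed at several positions made up 36.8%, 35.6% and 35.8% of all reads with dCeMM-2 (mean 36%), 39.7%, 36.1% and 36.3% with THZ531 (mean 37.4%), and 29.5%, 27.7% and 27.7% with DMSO. Reads outside annotated features made up 6.38%, 7.58% and 8.42% with dCeMM-2 (mean 7.46%) and 4.66%, 5.36% and 5.37% with DMSO, while with THZ531 they were 4.99%, 8.27% and 8.18% and overlapped the solvent. The compounds overlapped each other in both measures. Reads overlapping several features were 1.31%, 1.31% and 1.34% with dCeMM-2, 1.19%, 1.25% and 1.26% with THZ531, and 1.42%, 1.47% and 1.43% with DMSO, below the solvent with both compounds.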

How the results depend on the processing

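Calls between dCeMM-2 and THZ531 depended most on scaling. Spike-in scaling gave 1340 genes higher, 143 lower and 49 lower by at least 2-fold, and DESeq2 gave 56 lower by at least 2-fold, against 3040, 1529 and 104. The 6 libraries alone gave 2623 higher and 2168 lower, and no filter gave 2703 and 1216. Leaving out 1 library of either compound gave 2583 to 2857 higher, 1207 to 1321 lower, 485 to 581 higher by at least 2-fold and 73 to 126 lower by at least 2-fold. Of 1290 recomputed values of the 86 named genes, 1248 kept direction and side of the threshold, 34 lost the call, 1 gained it and 7 changed sign. Those 7 were all FANCD2, main value 0.02, at -0.05 with the size factors of DESeq2, -0.03 with 6 libraries, -0.06 with DESeq2, -0.15 to 0.16 with single libraries left out (-0.15, -0.05 and -0.03 changed sign) and -0.03 with THZ531 replicates 2 and 3 summed. The spike-in share difference of -0.0184 ranged from -0.0756 to 0.0232 with single libraries left out, was 0.0120 without THZ531 replicate 2, 0.00852 without THZ531 replicate 3 and 0.0103 with those averaged. The single-exon difference of -0.0124 was 0.0103 with the stricter filter, 0.000848 with a pseudocount of 2 counts and -0.0846 to 0.0715 with single libraries left out, the highest without dCeMM-2 replicate 3. Causes were not tested. Deviations of same-numbered replicates from their group means had correlations of 0.133, -0.038 and 0.179, and those of other-numbered replicates ran from -0.233 to 0.15. These few, overlapping values cannot decide whether the numbers pair the libraries. The fit with the replicate block gave 3060 higher and 1544 lower, 511 and 99 by at least 2-fold. Of 1080 recomputed list counts, 171 moved by over 1.5 times. dCeMM-2 replicate 3 and DMSO replicate 3 were the shallowest libraries of their groups, which limits genes of low level.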

Other observations

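By gene type, 23.8% of 12332 protein-coding genes were higher and 11.4% lower with dCeMM-2 than with THZ531. Of 569 antisense genes 2.81% were higher and 4.57% lower, and of 428 lincRNA genes 4.67% were higher and 7.01% lower. Of 847 processed pseudogenes 1.65% were higher and 1.06% lower. Of 127 sense intronic genes 12.6% were higher and 7.09% lower. In 2 small classes the share of lower calls was above that of protein-coding genes, with 20% of 50 sense overlapping genes (8% higher) and 12.7% of 55 unprocessed pseudogenes (0% higher). Reads of non-coding and pseudogene classes can belong to overlapping or parent genes, and the part of depth in these shares was not tested.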
